A study of Homo sapiens with 2 samples.

Results

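The genes described here are 10 long noncoding RNA genes, 3 that yield long nuclear or regulatory RNAs (MALAT1, NEAT1 and TUG1) and 7 that host small nucleolar RNAs, or snoRNAs, in their introns (GAS5, SNHG1, SNHG5, SNHG6, SNHG8, SNHG15 and ZFAS1). They were taken from a list of gene symbols, and all 10 were present among the 30796 Ensembl identifiers of the deposited matrix. The study profiled single cells of MDAMB468 and CAL51, both established human lines of triple-negative breast cancer, with Drop-seq, in which a cell is lysed in a droplet together with a barcoded bead. The labels name breast as the tissue of both lines and give neither a treatment nor a genotype. Each line was 1 library, so cells of 1 line are not replicates, no difference has a replicate check, and no p-value was computed.

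MALAT1 and NEAT1 are long RNAs that stay in the nucleus. MALAT1 gathers at nuclear speckles, which hold splicing factors, and NEAT1 is the scaffold of paraspeckles, which hold RNA-binding proteins such as NONO and SFPQ. TUG1 is a long noncoding RNA found in both nucleus and cytoplasm. The snoRNA host genes work differently: their introns are processed into snoRNAs, which guide the chemical modification of ribosomal RNA, while the spliced exons leave the nucleus as a by-product. Many hosts start with the terminal oligopyrimidine tract that also opens ribosomal protein mRNAs, and their spliced RNAs are often removed by nonsense-mediated decay when they are translated. GAS5 was named for its accumulation in growth-arrested cells, and MALAT1 has been studied in breast cancer metastasis.

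The transcript starts are shown because many snoRNA host genes are known for pyrimidine-rich starts, a feature they share with ribosomal protein genes. Windows of 75 bases from the RefSeq promoter table (GRCh38.p14) are given for 7 of the 10 genes. They run from 25 bases before the annotated start to 50 bases from it. The remaining genes have no window here, so the host windows cover 5 of the 7 hosts. Capitals mark CTTT, a short pyrimidine motif, on the sense strand, which reads like the RNA.
SNHG5 (chr6:85678684-85678758, minus strand): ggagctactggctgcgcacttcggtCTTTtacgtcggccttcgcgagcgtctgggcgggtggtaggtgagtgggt
ZFAS1 (chr20:49278617-49278691, plus strand): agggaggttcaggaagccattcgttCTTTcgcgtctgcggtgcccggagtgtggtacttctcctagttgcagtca
SNHG8 (chr4:118278737-118278811, plus strand): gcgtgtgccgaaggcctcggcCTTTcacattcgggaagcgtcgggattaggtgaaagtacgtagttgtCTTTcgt
SNHG1 (chr11:62855836-62855910, minus strand): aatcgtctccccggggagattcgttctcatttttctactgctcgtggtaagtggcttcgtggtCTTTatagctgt
GAS5 (chr1:173868996-173869070, minus strand): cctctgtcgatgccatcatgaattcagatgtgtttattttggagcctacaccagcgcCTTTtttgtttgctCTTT
TUG1 (chr22:30969240-30969314, plus strand): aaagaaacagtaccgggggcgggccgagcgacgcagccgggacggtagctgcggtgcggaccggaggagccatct
MALAT1, first of 2 starts (chr11:65497713-65497787, plus strand): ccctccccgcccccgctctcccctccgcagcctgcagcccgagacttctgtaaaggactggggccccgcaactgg
MALAT1, second start (chr11:65499020-65499094, plus strand): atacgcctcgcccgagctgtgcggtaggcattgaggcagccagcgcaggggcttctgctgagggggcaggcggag

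Counting from 1 at the annotated start, CTTT began at base 1 in SNHG5 and ZFAS1 and at base -4 in SNHG8. In SNHG1 it began at base 39, and in GAS5 at bases 33 and 47. The motif therefore began between bases -5 and 5 in 3 of 5 host windows, in 41 of 85 windows of ribosomal protein genes (48.2%) and in 2086 of all 35116 windows (5.94%). Of the 19 windows of other noncoding snoRNA host genes, 4 held it there (21.1%). Anywhere in the window, CTTT was present in all 5 host windows and in 25.4% of all windows, and in 0 of the 3 windows of MALAT1 and TUG1. On the opposite strand, where it reads AAAG, it was present in 1 of 5 host windows, in 2 of the 3 windows of MALAT1 and TUG1 and in 23.9% of all windows. The longest unbroken run of C and T that held any of the bases from -5 to 5 was also measured, after the sequences had been seen. It had 7 bases in ZFAS1 and SNHG1, 6 in SNHG5 and SNHG8 but only 3 in GAS5, against 11 and 1 at the 2 starts of MALAT1 and 2 at that of TUG1. The run was longer than the median of 4 over all windows in ZFAS1, SNHG1, SNHG5 and SNHG8. GAS5 fell short of that median, and 1 start of MALAT1 had the longest of these runs. A run of 6 or more, a limit set after seeing these values, was present in 22.2% of all windows and in 60 of the 85 windows of ribosomal protein genes (70.6%). The RefSeq starts differ from those of GENCODE release 29, and the GAS5 window lies wholly before the GENCODE start. The motif and run values of GAS5 therefore describe the RefSeq start alone.

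Drop-seq beads capture RNA through an oligo-dT primer, and the labels give polyA RNA as the molecule. The mature 3′ end of MALAT1, and that of the long NEAT1 isoform, is cut by RNase P and closed by a triple helix in place of a poly(A) tail. Runs of 10 or more A were therefore located inside the longest GENCODE release 29 transcripts of both genes (GRCh38), and the run of MALAT1 is shown in capitals.
MALAT1-202 (chr11:65506073-65506135, plus strand): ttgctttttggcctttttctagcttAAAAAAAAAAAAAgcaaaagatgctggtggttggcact
The run in MALAT1-202 was 13 bases long and was the only one in a transcript of 8708 bases, 359 bases before its annotated 3′ end. The annotated end need not be the mature end cut by RNase P. How far the run lies from the mature end was not examined, so the run is not shown to be separate from that end. NEAT1-202, of 22743 bases, held 5 such runs. The deposited counts carry no read positions, so the place on either RNA where the molecules were primed was not tested.

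The MDAMB468 library held 306 barcodes with 5501900 unique molecular identifiers (UMIs, 1 per captured molecule) and a median of 10016.5 UMIs. CAL51 was described with 1346 of its 1377 barcodes, which held 16223444 UMIs and had a median of 8635. The other 31 carried a barcode sequence that was also present in MDAMB468 and were left out of CAL51. In addition, 64 MDAMB468 barcodes and 7 CAL51 barcodes were satellites: their sequence was 1 base away from that of another barcode in their own library, which had 5 or more times as many UMIs. These were kept, and values without them are given for some of the comparisons below. Line markers separated the libraries, with 5243 UMIs of KRT7 in MDAMB468 and 0 in CAL51, and 9 UMIs of GSTP1 in MDAMB468 against 85390 in CAL51. The hormone receptors ESR1 and PGR had at most 3 UMIs in either line, and none of the leukocyte, endothelial or fibroblast marker lists summed to more than 4.18 CPM, or UMIs per 1000000 UMIs, in a line.

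Of the 7 snoRNA host genes, 6 were more than 2-fold higher in MDAMB468, whereas SNHG5 was more than 2-fold lower, and MALAT1, NEAT1 and TUG1 lay within 2-fold. Together the 7 hosts gave 5272 CPM in MDAMB468 and 1755 CPM in CAL51, a ratio of 3.0 (95% counting interval 2.96 to 3.05). Among all 15347 genes with at least 20 UMIs, 15.8% were past 2-fold higher in MDAMB468 and 18.6% past 2-fold lower, against 6 and 1 of the 10 genes described here. The median difference was 1.41 over the 10 genes and -0.13 over all genes, on the log2(CPM + 1) scale, MDAMB468 minus CAL51. Levels were not divided by length, since a UMI stands for 1 captured molecule, and whether an RNA with internal A-runs was captured at more than 1 place was not tested.

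GAS5 differed most of the 10. It had 12713 UMIs in MDAMB468, or 2311 CPM (2271 to 2351), and 5244 UMIs in CAL51, or 323 CPM (315 to 332). The ratio was 7.15 (6.92 to 7.38), and 4.20% of all genes had a larger log2 difference than its 2.83. GAS5 alone made up 43.8% of the host UMIs in MDAMB468 and 18.4% in CAL51. With GAS5 left out, the remaining 6 hosts still gave 2961 CPM in MDAMB468 against 1431 CPM in CAL51, a ratio of 2.07 (2.03 to 2.11).

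ZFAS1, which hosts snoRNAs and lies antisense to the 5′ end of ZNFX1, reached 1403 CPM in MDAMB468 and 282 CPM in CAL51 (7721 and 4578 UMIs), a ratio of 4.97 (4.79 to 5.16). SNHG15 stood at 244 CPM against 45.9 CPM (1344 and 745 UMIs), a ratio of 5.32 (4.86 to 5.83). SNHG8 stood at 234 CPM against 63.2 CPM (1290 and 1026 UMIs), a ratio of 3.71 (3.41 to 4.03). All 3 were therefore several times higher in MDAMB468, with intervals well away from a ratio of 2. SNHG6 had 469 CPM in MDAMB468 and 154 CPM in CAL51 (2582 and 2504 UMIs), a ratio of 3.04 (2.88 to 3.21). SNHG1 was the host nearest to the 2-fold limit among those higher in MDAMB468, with 243 CPM against 104 CPM (1339 and 1686 UMIs) and a ratio of 2.34 (2.18 to 2.52).

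SNHG5 went the other way. It had 2016 UMIs in MDAMB468, or 366 CPM (351 to 383), and 12684 UMIs in CAL51, or 782 CPM (768 to 796), so that CAL51 was 2.13-fold higher (2.04 to 2.24). SNHG5 made up 6.95% of the host UMIs in MDAMB468 and 44.6% in CAL51, which made it the leading host of CAL51. Its log2 difference of -1.09 lay close to the limit, and it was -0.99 when counts were scaled without mitochondrial and ribosomal protein genes.

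The nuclear RNAs differed little between the lines. MALAT1 had 36969 UMIs in MDAMB468, or 6719 CPM (6651 to 6788), and 81583 UMIs in CAL51, or 5029 CPM (4994 to 5063), a ratio of 1.34 (1.32 to 1.35). It ranked 2 among all genes of MDAMB468 and 5 among those of CAL51. NEAT1 was lower in MDAMB468, at 85.8 CPM (78.2 to 93.9) against 109 CPM (104 to 114), a ratio of 0.789 (0.711 to 0.874). TUG1 was at 56.7 CPM (50.6 to 63.4) in MDAMB468 and 47.3 CPM (44.0 to 50.7) in CAL51, a ratio of 1.20 (1.05 to 1.37). These 3 ratios exclude 1 by counting error alone, and no spread between cultures was measured against which to set them.

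**Figure D1:**
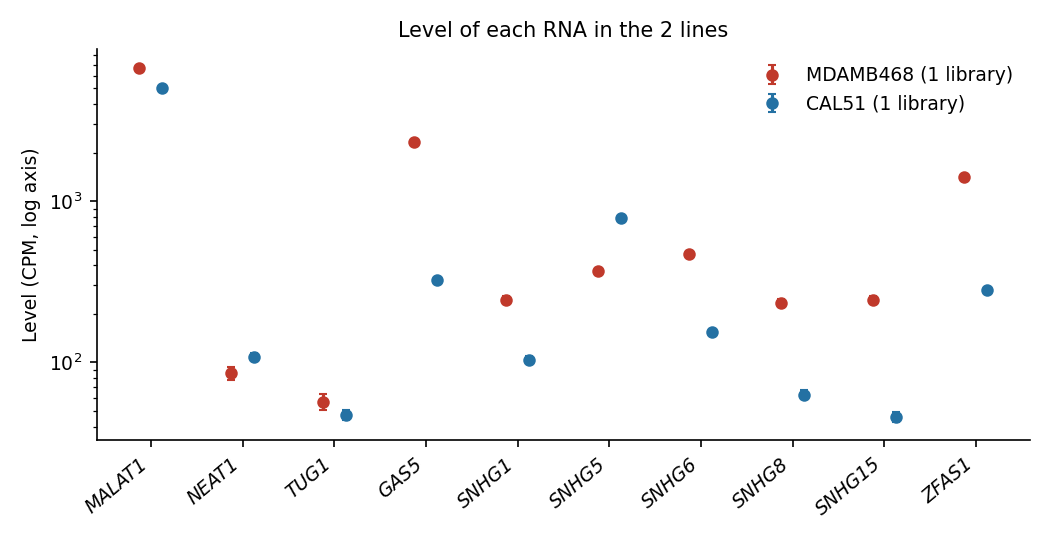
Level of each RNA as CPM on a log axis, with 1 point per line and bars for 95% Poisson intervals of the summed UMIs, which are mostly smaller than the points. GAS5 lies at 2311 CPM in MDAMB468 and 323 CPM in CAL51, while SNHG5 is the only host that is higher in CAL51.

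**Figure D2:**
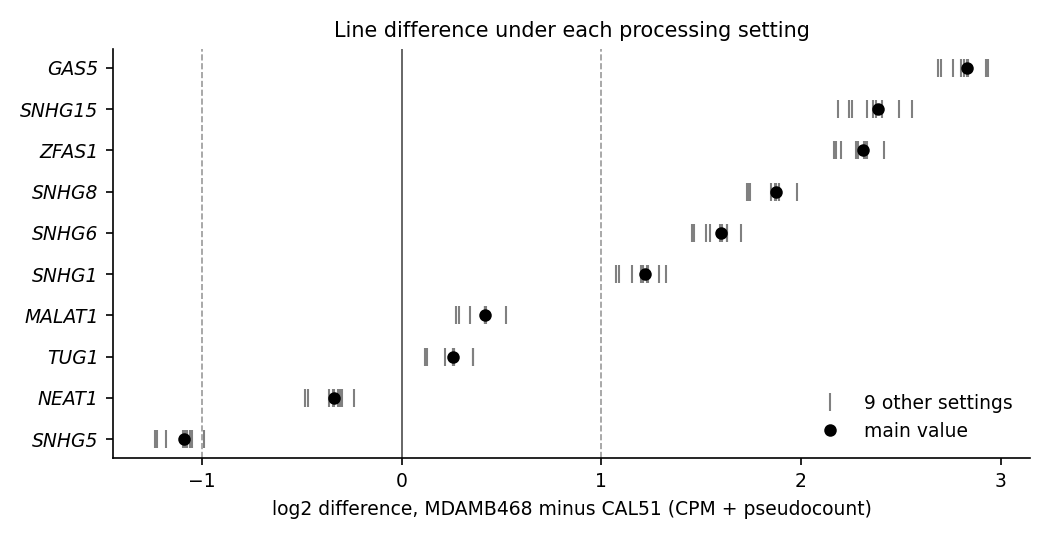
The log2 difference of each RNA, MDAMB468 minus CAL51, as the main value (black points) and under 9 other settings (grey marks), with dashed lines at 2-fold. GAS5 ranges from 2.69 to 2.94, and SNHG5 (-1.24 to -0.99) is the only gene whose marks cross a 2-fold line.

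The order of the levels also differed between the lines. In MDAMB468 it ran MALAT1, GAS5, ZFAS1, SNHG6, SNHG5, SNHG15, SNHG1, SNHG8, NEAT1 and TUG1, by UMIs. SNHG15, SNHG1 and SNHG8 could not be ordered, since the ratio of SNHG15 to SNHG1 was 1.0 (0.930 to 1.08) and that of SNHG1 to SNHG8 was 1.04 (0.961 to 1.12). In CAL51 the order was MALAT1, SNHG5, GAS5, ZFAS1, SNHG6, NEAT1, SNHG1, SNHG8, TUG1 and SNHG15. There, NEAT1 and SNHG1 had a ratio of 1.05 (0.978 to 1.12), and TUG1 and SNHG15 one of 1.03 (0.930 to 1.14), so neither pair was distinct. All other neighbours in both orders differed beyond counting error. MALAT1 made up 55.4% of the UMIs of the 10 genes in MDAMB468 and 72.5% in CAL51.

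The line differences were also visible as the share of barcodes in which an RNA was found. The 306 MDAMB468 barcodes include the 64 satellites, which may not be separate cells, and the intervals below treat every barcode as separate. Shares without satellites are not given here. To set depth equal, every barcode was thinned at random to 2500 UMIs, and no barcode was too shallow for it. GAS5 was then found in 305 of 306 MDAMB468 barcodes (99.7%) and in 696 of 1346 CAL51 barcodes (51.7%, exact Clopper-Pearson interval 49.0 to 54.4). ZFAS1 followed with 95.1% (92.0 to 97.2) against 49.8% (47.1 to 52.5). SNHG5 was found in 52.3% (46.5 to 58.0) of MDAMB468 barcodes and in 83.7% (81.6 to 85.7) of CAL51 barcodes. The share was thus higher in MDAMB468 for 6 hosts and lower for SNHG5, like the levels.

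Among the less abundant hosts, SNHG6 was found in 60.1% of MDAMB468 and 31.0% of CAL51 barcodes, SNHG15 in 46.1% and 11%, SNHG1 in 44.8% and 22.5%, and SNHG8 in 42.5% and 13.6%. MALAT1 was found in 99.7% of barcodes in each line. NEAT1 was found in 17.3% (13.3 to 22.0) of MDAMB468 and 22.3% (20.1 to 24.6) of CAL51 barcodes, and TUG1 in 14.4% (10.6 to 18.8) and 10.4% (8.82 to 12.2), so both intervals overlapped between the lines. Without thinning, NEAT1 was found in 48.0% and 55.9% of barcodes and GAS5 in 100% and 83.7%. Neither library holds a cell type that should lack these RNAs, so the share that free RNA gives was not measured.

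**Figure D3:**
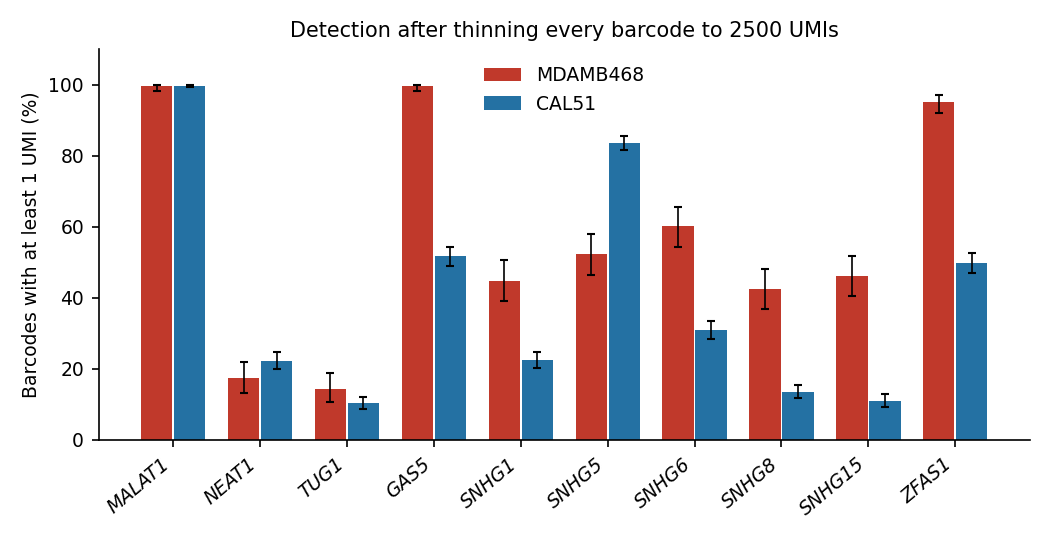
Share of barcodes with at least 1 UMI of each RNA after thinning to 2500 UMIs, as bars from 0 with exact 95% binomial intervals (306 MDAMB468 and 1346 CAL51 barcodes). GAS5 stands at 99.7% and 51.7%, and SNHG5 is reversed, at 52.3% and 83.7%.

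MALAT1 varied more between cells than other RNAs of its level. In thinned barcodes it ranged from 0 to 49 UMIs around a median of 15 in MDAMB468, and from 0 to 89 around a median of 11 in CAL51. Its Fano factor (variance over mean, 1 for pure counting noise) was 4.82 in MDAMB468 and 7.13 in CAL51. No gene had a larger Fano factor among the 8 and 10 genes whose mean lay within 1.5-fold, for which the medians were 2.15 and 2.71. These sets of like mean, and those below, include the gene itself. NEAT1, at 1.52 and 1.23, was exceeded by 1.11% of 1628 genes of like mean in MDAMB468 and by 3.99% of 1553 in CAL51. GAS5 was less extreme, at 1.55 and 1.39, with 31.8% and 7.34% of genes of like mean above it, and TUG1 lay at 0.900 and 1.11.

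MALAT1 moved little with the depth of a barcode, and no movement of NEAT1 was resolved between depth quartiles. From the shallowest to the deepest quartile of MDAMB468 barcodes, MALAT1 stood at 7001, 6528, 6436 and 6830 CPM, and in CAL51 at 5449, 5249, 5272 and 4799 CPM. The ratio of the deepest to the shallowest quartile was 0.975 (0.928 to 1.03) in MDAMB468 and 0.881 (0.859 to 0.903) in CAL51. For NEAT1 these ratios were 1.02 (0.654 to 1.67) and 0.945 (0.799 to 1.12), and both intervals include 1. The wide MDAMB468 interval rests on 21 UMIs in the shallowest quartile, which held 54 satellites. Over thinned barcodes, the Spearman rho (rank correlation) of NEAT1 with depth was 0.15 in MDAMB468 and 0.01 in CAL51.

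SNHG6 in MDAMB468 was the only one of the 10 genes to pass 2-fold between these quartiles, with 221, 435, 484 and 486 CPM. Across all genes with at least 100 UMIs, 10.2% of 6513 passed 2-fold in MDAMB468 and 1.24% of 9793 in CAL51, where 0 of the 10 did. The low value sat in the shallowest quartile, which held 54 of the 64 satellite barcodes, and without satellites 0 of the 10 passed. Satellites as a set had 190 CPM of SNHG6 (136 to 258), against 456 CPM (422 to 492) in the 16 deep barcodes that they lie 1 base from. They also had less SNHG5 (176 against 357 CPM), less NEAT1 (27.8 against 71.8 CPM) and less ZFAS1 (977 against 1310 CPM). GAS5 and SNHG15 were higher in them, at 2965 against 2034 CPM and 371 against 247 CPM. Their median depth was 3140 UMIs, and the part of depth or barcode error in these values was not tested.

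MALAT1 was higher in cells with a larger share of mitochondrial UMIs, whereas the NEAT1 ratio lay near 1 with an interval that includes it. Ranked by that share into quartiles, with CPM taken over non-mitochondrial UMIs so that the share itself cannot lower them, MDAMB468 barcodes had 5575, 7824, 7953 and 8517 CPM of MALAT1. CAL51 barcodes had 4236, 4972, 5740 and 7121 CPM. The top quartile was 1.53-fold (1.48 to 1.57) above the bottom quartile in MDAMB468 and 1.68-fold (1.65 to 1.71) in CAL51. Of all genes, 5.35% in MDAMB468 and 2.52% in CAL51 had a larger difference than MALAT1 in this comparison. NEAT1 ran 89.0, 103, 76.9 and 94.0 CPM in MDAMB468 and 105, 120, 118 and 114 CPM in CAL51, with ratios of 1.06 (0.799 to 1.39) and 1.09 (0.937 to 1.25).

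No gene of the 10 passed 2-fold between these quartiles, where 1.93% of all genes did in MDAMB468 and 0.901% in CAL51. Depth moved with the mitochondrial share: the median was 15752 UMIs in the bottom quartile and 7070.5 in the top quartile of MDAMB468, and 10968 and 6454 in CAL51. Among barcodes below the median depth the MALAT1 ratio was 1.46 (1.35 to 1.57) in MDAMB468 and 1.80 (1.73 to 1.88) in CAL51. Among those above the median depth it was 1.56 (1.51 to 1.61) and 1.58 (1.55 to 1.62), so the direction was the same in all 4 sets. The NEAT1 intervals included 1 in each of those sets.

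The hosts had smaller and mixed differences in that ranking. GAS5 was 1.16-fold higher (1.10 to 1.22) in the top quartile of MDAMB468 and lower in CAL51, at a ratio of 0.821 (0.753 to 0.894), but with the 31 shared barcodes kept in CAL51 its log2 difference there turned to 0.12. ZFAS1 was lower in both lines, with ratios of 0.901 (0.840 to 0.965) and 0.840 (0.766 to 0.921). The intervals of SNHG1, SNHG6 and SNHG15 included 1 in both lines.

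**Figure D4:**
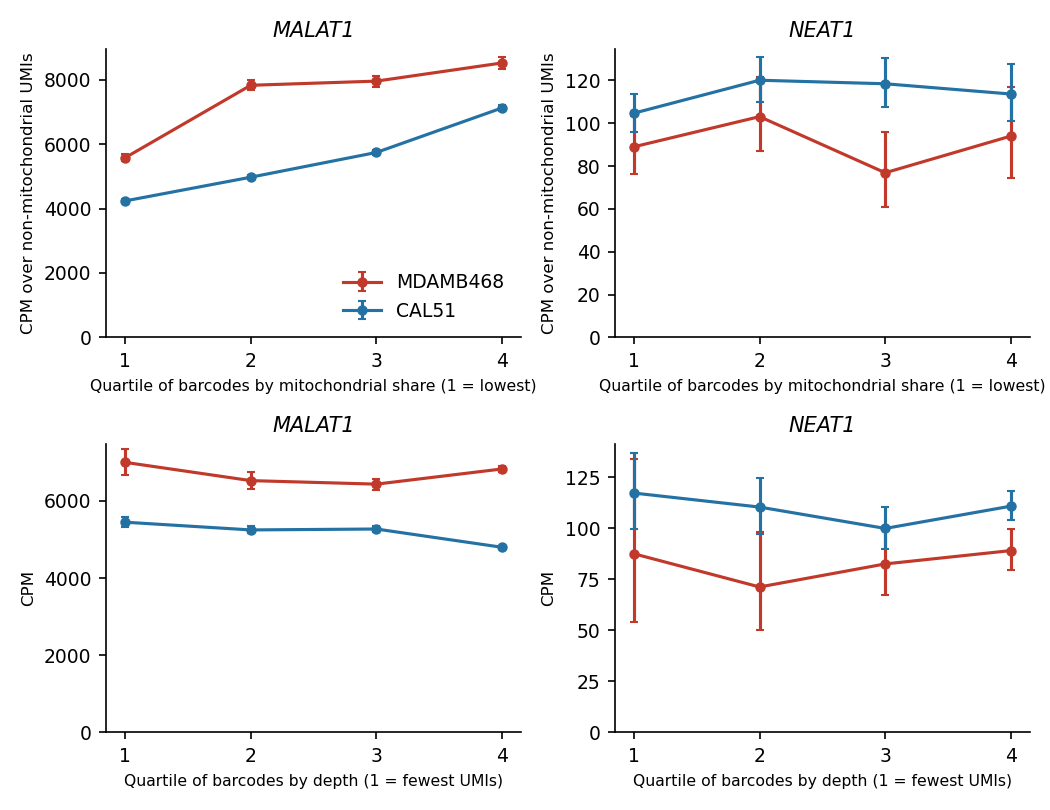
Levels of MALAT1 and NEAT1 in 4 quartiles of barcodes ranked by mitochondrial share (top row, CPM over non-mitochondrial UMIs) and by depth (bottom row, CPM), with 95% Poisson intervals and axes from 0. MALAT1 climbs from 4236 to 7121 CPM with the mitochondrial share in CAL51, while the NEAT1 intervals overlap between quartiles.

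The host genes followed the ribosomal protein genes from cell to cell, while MALAT1 and TUG1 ran against them in CAL51. This ranking of barcodes, by the share of UMIs on 87 cytosolic ribosomal protein genes, was added after the data had been seen. CPM were taken over UMIs outside the ribosomal protein and mitochondrial genes. The host sum stood at 5448, 6384, 7114 and 8314 CPM from the bottom to the top quartile of MDAMB468 and at 1672, 1954, 2210 and 2640 CPM in CAL51. The ratio of top to bottom was 1.53 (1.48 to 1.58) and 1.58 (1.53 to 1.63), and it was 1.56 in MDAMB468 and 1.59 in CAL51 without satellites.

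GAS5 was 1.63-fold (1.55 to 1.72) higher in the ribosomal-protein-rich quartile of MDAMB468 and 1.86-fold (1.71 to 2.01) higher in that of CAL51. In CAL51 all 7 hosts had ratios above 1 with intervals that exclude it, from 1.21 for SNHG6 to 2.06 for SNHG8. In MDAMB468 this held for 6 of 7, the exception being SNHG1 at 1.07 (0.923 to 1.25). Without satellites, with the quartiles drawn anew, SNHG1 stood at 1.24 (1.07 to 1.45) there. This interval overlaps the one with satellites, and the part of the satellites in the change was not tested. SNHG8 in CAL51 was the only one of the 10 genes past 2-fold, where 2.32% of all genes were in CAL51 and 2.98% in MDAMB468. The median over all genes was -0.12 on the log2 scale in each line. The share of all genes with a larger ratio than a host ran from 0.413% (SNHG8) to 13.9% (SNHG6) in CAL51. In MDAMB468 it ran from 1.84% (GAS5) to 29.2% (SNHG1). The share of all genes whose intervals lie above 1 was not computed.

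MALAT1 ran 7318, 6365, 5661 and 4837 CPM over the same quartiles of CAL51, a ratio of 0.661 (0.648 to 0.674). In MDAMB468 the values were 8237, 10210, 8999 and 7294 CPM, with no steady order, and the ratio was 0.886 (0.859 to 0.913), or 0.708 without satellites. A larger ratio than that of MALAT1 was found for 55.7% of all genes in MDAMB468 and for 89.4% in CAL51. TUG1 had ratios of 0.793 (0.565 to 1.11) in MDAMB468 and 0.611 (0.488 to 0.763) in CAL51. The bottom quartile of MDAMB468 held 45 of the 64 satellites. The top quartile of CAL51 had a median mitochondrial share of 3.93%, against 4.89% in the bottom quartile. NEAT1 had ratios of 1.04 (0.796 to 1.36) in MDAMB468 and 1.08 (0.941 to 1.24) in CAL51, both with intervals that include 1. Without satellites the MDAMB468 ratio of NEAT1 was 0.727 (0.550 to 0.952), with an interval that excludes 1.

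Gene by gene, the hosts were only weakly linked to each other. Over thinned barcodes the Spearman rho of the 21 host pairs had medians of 0.03 (MDAMB468) and 0.04 (CAL51), and the highest values were 0.21 (SNHG6 with ZFAS1, MDAMB468) and 0.11 (GAS5 with SNHG5, CAL51). The summed hosts had a rho of 0.34 with the summed ribosomal protein genes in MDAMB468 (306 barcodes) and 0.31 in CAL51 (1346 barcodes). MALAT1 had a rho of 0.33 and 0.23 with the mitochondrial genes and of -0.18 and -0.28 with the ribosomal protein genes. With the speckle protein genes MALAT1 had a rho of 0.21 in MDAMB468 and -0.03 in CAL51, and NEAT1 had -0.02 and 0.00 with the paraspeckle protein genes. These are descriptions of barcodes that share a library, and at such low counts per barcode a rho near 0 does not show that 2 genes are unlinked.

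Among the 5 genes whose counts went most with MALAT1 over barcodes in both lines, out of 1375 found in at least 20% of barcodes, were TOP2A (topoisomerase of chromosome segregation), CENPE (a kinetochore motor), AURKA (a spindle kinase) and ASPM (spindle poles). Their rho lay between 0.13 and 0.28. For GAS5 the leading genes were EEF1A1 and EEF2, both translation elongation factors, PSAT1 of serine synthesis, ZFAS1 and the cyclin gene CCND1, with rho between 0.08 and 0.23. EEF2 also hosts a snoRNA.

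Because cell division genes led that list, a list of 54 genes of the G2 and M phases was added afterwards, and barcodes were ranked by their share of UMIs on it. The list holds TOP2A, CENPE and AURKA, already picked as most like MALAT1, so the MALAT1 ratios in this ranking partly restate that choice. From the bottom to the top quartile, MALAT1 ran 5533, 6115, 7266 and 9459 CPM in MDAMB468, a ratio of 1.71 (1.66 to 1.76). In CAL51 it ran 6266, 3920, 5174 and 6148 CPM, so that both ends were high, the second quartile was low, and the ratio of top to bottom was 0.981 (0.963 to 1.0). The host sum went slightly down in both, at ratios of 0.849 (0.821 to 0.878) and 0.793 (0.766 to 0.820). Past 2-fold were 0 of the 10 genes in this ranking, against 4.9% and 1.98% of all genes in MDAMB468 and CAL51.

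The link of MALAT1 to the mitochondrial share was present at every level of the G2 and M list. Within each of its 4 quartiles, barcodes above the median mitochondrial share had between 1.22 and 1.55 times as much MALAT1 as those below it in MDAMB468, and between 1.34 and 1.43 times as much in CAL51. In the lowest quartile of CAL51 the values below and above that median were 5439 and 7391 CPM, and in the highest quartile of MDAMB468 they were 8664 and 10600.5 CPM (CPM over non-mitochondrial UMIs).

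**Figure D5:**
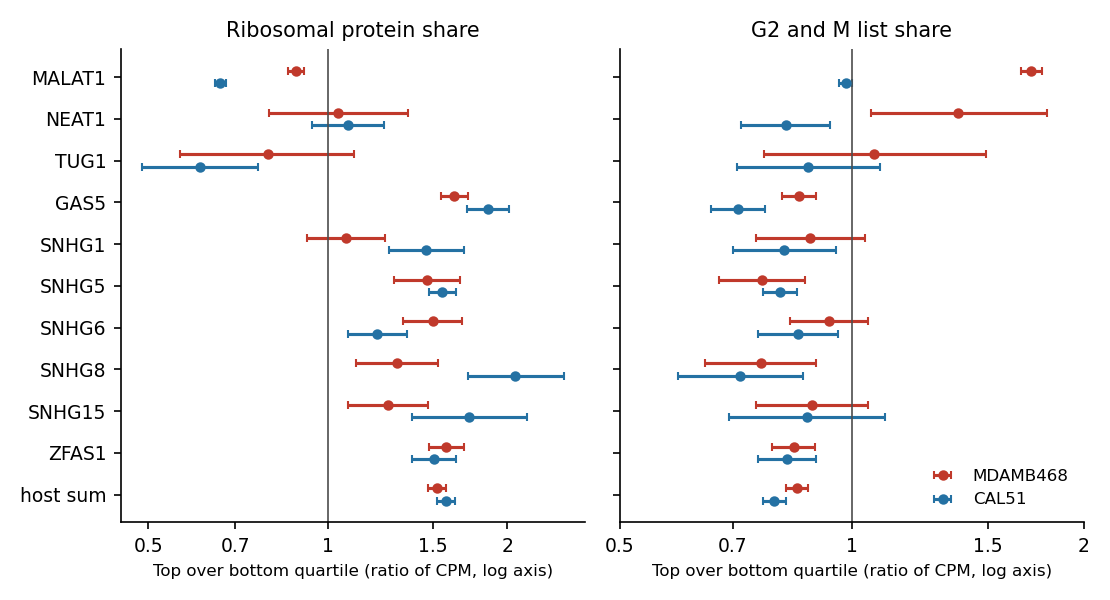
Ratio of CPM between the top and bottom quartile of barcodes ranked by ribosomal protein share (left) and by the share of a G2 and M phase list (right), on a log axis with 95% counting intervals. On the left the host sum lies at 1.53 and 1.58, and on the right MALAT1 lies at 1.71 in MDAMB468 and 0.981 in CAL51.

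Other noncoding snoRNA host genes were mixed. Of 21 such genes, 20 were in the matrix and all had at least 20 UMIs; 7 were past 2-fold higher in MDAMB468, 3 past 2-fold lower, and the median log2 difference was 0.68. Over all genes, 15.8% were past 2-fold higher and 18.6% past 2-fold lower, with a median of -0.13, and the counts of every list below are read beside these. SNHG32, which GENCODE release 29 types as protein-coding, had the highest difference, 2.09, and SNHG14, the long host transcript of the imprinted Prader-Willi region, the lowest, -3.69, from 11 UMIs in MDAMB468 and 613 in CAL51. Protein-coding snoRNA hosts had a median of 0.23, with 2 of 18 past 2-fold higher and 1 lower, from DKC1 (1.34) to HSPA9 (-1.06). Cytosolic ribosomal protein genes had a median of 0.36, with 12 of 85 past 2-fold higher and 2 lower, from RPL36A (1.58) to RPS27L (-2.54).

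Genes of proteins that act on these RNAs were mixed. Of 8 snoRNP proteins, which bind snoRNAs, 2 were past 2-fold higher in MDAMB468 and 0 lower, with a median of 0.32, from DKC1, the pseudouridine synthase, at 1.34 to NOP10 at -0.23. These 2, NOP56 and DKC1, are the same genes that were past 2-fold higher among the protein-coding snoRNA hosts. Of 10 factors of nonsense-mediated decay, 2 were past 2-fold higher and 2 lower, with a median of 0.05, from UPF3B at 1.53 to SMG8 at -2.35. None of 8 paraspeckle protein genes passed 2-fold (median -0.49, from PSPC1 at 0.79 to CPSF6 at -0.67), and none of 8 nuclear speckle protein genes did (median -0.29, from SRRM1 at 0.01 to SRRM2 at -0.96). A list of 15 other long noncoding RNAs, of which 12 had at least 20 UMIs, had 2 past 2-fold higher in MDAMB468 and 6 lower, with a median of -0.62. Its ends were HOTAIR at 5.13 (199 UMIs in MDAMB468, 1 in CAL51) and KCNQ1OT1 at -4.25 (5 and 572 UMIs).

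Of the 6 hosts higher in MDAMB468, 5 lay 2-fold or more from the median of the genes around them, and SNHG1 did not. These 6 are the hosts already past 2-fold, so such a gap largely follows from that choice where the median around them is small. The share of all genes with such a gap was not computed. For GAS5 (chromosome 1, 173863900 to 173868882, minus strand, GENCODE release 29 on GRCh38) the 10 genes starting within 1 Mb had a median log2 difference of 0.07, against its own 2.83. The medians were 0.09 over 19 genes around ZFAS1 (chromosome 20, 49278178 to 49295738), 0.23 over 22 genes around SNHG15 (chromosome 7, 44983023 to 44986961) and -0.19 over 7 genes around SNHG8 (chromosome 4, 118278709 to 118279823). Around SNHG6 (chromosome 8, 66921684 to 66926398) the median was -0.09 over 8 genes.

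SNHG1 (chromosome 11, 62851988 to 62855914) lay 0.87 above a median of 0.35 over 45 genes, and SNHG5 (chromosome 6, 85660950 to 85678748) lay 0.32 below a median of -0.77 over only 5 genes, or 0.92 below a median of -0.17 over 14 genes within 2 Mb. MALAT1 and NEAT1 are neighbours on chromosome 11, 52148 bases apart, in a stretch with a median of 0.45. MALAT1 lay at that median, with 0.42, and NEAT1 lay 0.79 below it. TUG1 (chromosome 22, 30969245 to 30979395) had 0.26 beside a median of 0.15 over 36 genes.

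Some of these genes overlap others in the annotation, and the sources used here do not say if strand was used in counting. GAS5 overlaps ZBTB37, which had 43 UMIs in MDAMB468 and 180 in CAL51. ZFAS1 overlaps ZNFX1, with 115 and 143 UMIs. These counts are small beside the 12713 and 5244 UMIs of GAS5 and the 7721 and 4578 UMIs of ZFAS1, and without a stated strand setting reads of overlapping genes cannot be told apart.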

How the data were processed

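RNA of 2 cell lines was measured with Drop-seq, with 1 library per line. The deposited matrix holds UMI counts per gene and barcode as whole numbers, which show no sign of scaling by the authors. STARsolo is named in the submitters' processing notes; the sources used here do not give its version, genome build, annotation, strand setting or choice of barcodes. Barcodes were assigned to a line by the start of their name. Symbols came from a gene name table (30730 of 30796 identifiers) and positions from GENCODE release 29 (29416).

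The genes and lists were chosen with earlier results of these data known. The rule for named genes was all 10 members, the highest and the lowest line difference of each list among genes with at least 20 UMIs, and the 5 genes most like MALAT1 and GAS5; other genes were picked with their values known, and some items under these rules are not reported here. UMIs were summed per line and scaled to CPM, and log2(CPM + 1) differences past 2-fold count as called. Within a line, barcodes were ranked and split into 4 equal sets, called quartiles here, for genes with at least 100 UMIs in that line. Intervals are exact 95% Poisson, conditional ratio or Clopper-Pearson intervals and cover counting error only. Doublets were not called. The statistics were tested on simulated data. Computations used pandas 2.3.3, scipy 1.17.1 and numpy 2.4.6 under Python 3.11.15, and edgeR 4.0.16 in R 4.3.3 for TMM factors alone.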

Additional observations from a re-analysis of the deposited data

Results flagged for a closer look

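SNHG5 changed with depth in opposite directions in the 2 lines: the deepest minus the shallowest quartile of barcodes was 0.62 on the log2 scale in MDAMB468 and -0.23 in CAL51. The shallowest quartile of MDAMB468 held 54 of its 64 satellite barcodes, in which SNHG5 stood at 176 CPM, and without satellites the MDAMB468 value was -0.03. GAS5 and SNHG5 likewise had opposite signs in the ranking by mitochondrial share, with 0.21 for GAS5 in MDAMB468 and -0.28 in CAL51, and with -0.21 for SNHG5 in MDAMB468 and 0.083 in CAL51. With the shared barcodes kept in CAL51, the GAS5 value there was 0.12, and among CAL51 barcodes above the median depth the SNHG5 value was -0.05. With 1 library per line, none of these differences between the lines was tested.

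The 31 CAL51 barcodes whose sequence is also in MDAMB468, which were left out of the main values, held 1204 UMIs of the 10 genes. Their GAS5 level was 2263 CPM and their ZFAS1 level 895 CPM, both nearer to MDAMB468 (2311 and 1403 CPM) than to the other CAL51 barcodes (323 and 282 CPM). Their MALAT1 level was 4252 CPM, below that of both lines. KRT7, at 953 CPM in MDAMB468 and 0 in the other CAL51 barcodes, stood at 784 CPM in them, and GSTP1, at 1.64 CPM in MDAMB468 and 5263 CPM in the other CAL51 barcodes, at 2292 CPM. What these barcodes hold was not tested further.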

How the results depend on the processing

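The 6 hosts past 2-fold higher in MDAMB468 were the same genes under all 9 other settings. Under each, 8 of the 10 genes lay above 0, among them MALAT1 and TUG1, which stayed within 2-fold. The median of all genes lay below 0 under each, and the share of all genes above 0 was not computed. The count past 2-fold lower went from 1 to 0 when counts were scaled without mitochondrial and ribosomal protein genes. TMM and median-of-ratios scaling shifted the median of all genes by -0.12 and -0.13. The count past 2-fold by depth in MDAMB468 went from 1 to 0 without satellite barcodes. The MALAT1 difference between mitochondrial quartiles, 0.61 in MDAMB468 and 0.75 in CAL51 on the log2 scale, became 0.56 and 0.70 over all UMIs, 0.33 and 0.47 between barcodes above and below the median share, 0.54 and 0.85 among barcodes below the median depth, 0.66 above it in CAL51 and 0.71 in thinned CAL51 barcodes. The rho of the host sum with ribosomal protein genes became 0.55 and 0.40 as Pearson's r of unthinned log2 values, and 0.15 in CAL51 at 1000 UMIs. That of MALAT1 with them became -0.34 in CAL51 as Pearson's r, and its rho with mitochondrial genes became 0.20 in MDAMB468 at 1000 UMIs. The causes were not tested. No gene past 2-fold changed sign, but 20 values of single genes between quartiles by depth or mitochondrial share, all within 2-fold, did under 1 or more settings, among them ZFAS1 by depth in MDAMB468, from 0.34 to -0.15 without satellites. Of 85 recomputed main values, 70 stayed within their margins. No paired analysis was possible because each line is 1 library, and for the same reason no replicate could be left out. The fewest UMIs were 312 (TUG1) and 472 (NEAT1) in MDAMB468 and 745 (SNHG15) and 767 (TUG1) in CAL51.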
